A study of Mus musculus with 10 samples.

Results

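The genes described here are a set of 38 that carry out DNA replication and mitosis, and they were followed in the livers of germ-free mice given either gut microbiota-derived extracellular vesicles (MEV) or vehicle. The rule that picks the members is a list of gene symbols with no measured threshold, although the list was drawn up with earlier results of these data known, and they were found through their Ensembl identifiers in a table of 12148 genes. Of the 38 genes, 24 were analysed: 9 of 11 that load the helicase or build the replication fork, 8 of 9 that copy, clamp or seal DNA, 3 of 3 that supply nucleotides, 2 of 7 cyclins and cyclin-dependent kinases and 2 of 8 that act in mitosis or on mitotic chromosomes. The other 14 (*Cdc6*, *Gins2*, *Fen1*, *Ccne1*, *Ccne2*, *Ccna2*, *Ccnb1*, *Ccnb2*, *Top2a*, *Aurkb*, *Plk1*, *Bub1*, *Birc5* and *Kif11*) were not analysed here, and the levels and counts given below speak for the 24 genes that had passed the authors' filter on low counts. The series asked how MEV affect the liver transcriptome. Whole-liver RNA was sequenced from 5 wild-type, germ-free C57BL6 mice given vesicles by mouth (GF+MEV) and 5 wild-type, germ-free C57BL6 mice given PBS (GF+PBS). The vesicles had been isolated from the gut contents of control mice and were given repeatedly over several weeks. All of the mice lacked a live microbiota, and their age and sex were not given in the labels. The labels number separate mice within each group, so the replicate is the mouse.

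DNA replication starts when the MCM2-7 complex is loaded onto origins with the help of CDC6 and CDT1, and becomes an active helicase once CDC45 and GINS join it. Polymerases held on DNA by the PCNA clamp then copy the strands, using deoxynucleotides that ribonucleotide reductase and thymidylate synthase provide. Most hepatocytes of the adult liver are quiescent, so transcripts of this machinery are usually scarce there, and after liver injury or partial hepatectomy they rise together. Many of these genes are controlled through E2F sites, which act in late G1 and S phase, or through cell cycle homology region (CHR) and CCAAT elements, which act in G2 and mitosis.

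Promoters are shown for *Rrm2*, *Mki67* and *Cdk1*, the members with the largest log2 fold changes between the groups, and for *Rrm1*, which encodes the partner subunit of RRM2 and was added after its values had been seen. The sequences are RefSeq's for mouse build GRCm38.p6, 300 bases from 250 before to 50 after the annotated start, and lie at chr12:24708004-24708303 on the plus strand (*Rrm2*), chr7:135716330-135716629 on the minus strand (*Mki67*), chr10:69352863-69353162 on the minus strand (*Cdk1*) and chr7:102441445-102441744 on the plus strand (*Rrm1*). They are written 5′ to 3′ along the gene, and capitals mark the letters of an E2F motif (TTTCCCGC, TTTGGCGC, TTTCGCGC or TTTGCCGC), a CHR (TTTGAA) or CCAAT on either strand.
*Rrm2*: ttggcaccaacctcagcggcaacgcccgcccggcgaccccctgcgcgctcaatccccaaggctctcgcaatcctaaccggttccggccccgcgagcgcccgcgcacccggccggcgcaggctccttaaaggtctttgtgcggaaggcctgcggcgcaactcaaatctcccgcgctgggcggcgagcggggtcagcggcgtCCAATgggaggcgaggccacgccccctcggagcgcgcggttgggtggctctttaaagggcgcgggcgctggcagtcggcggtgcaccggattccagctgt
*Rrm1*: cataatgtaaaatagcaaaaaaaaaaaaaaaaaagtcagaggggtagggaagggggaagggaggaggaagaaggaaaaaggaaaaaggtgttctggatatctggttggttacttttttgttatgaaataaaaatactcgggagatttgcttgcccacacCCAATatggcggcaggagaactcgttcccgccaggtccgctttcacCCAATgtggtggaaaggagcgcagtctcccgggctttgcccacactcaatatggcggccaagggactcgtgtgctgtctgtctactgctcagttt
*Mki67*: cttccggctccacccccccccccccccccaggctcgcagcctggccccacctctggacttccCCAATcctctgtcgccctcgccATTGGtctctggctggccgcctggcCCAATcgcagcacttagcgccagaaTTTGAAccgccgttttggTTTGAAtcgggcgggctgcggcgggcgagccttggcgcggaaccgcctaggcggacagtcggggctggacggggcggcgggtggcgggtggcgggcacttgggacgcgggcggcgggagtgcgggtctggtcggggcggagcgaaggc
*Cdk1*: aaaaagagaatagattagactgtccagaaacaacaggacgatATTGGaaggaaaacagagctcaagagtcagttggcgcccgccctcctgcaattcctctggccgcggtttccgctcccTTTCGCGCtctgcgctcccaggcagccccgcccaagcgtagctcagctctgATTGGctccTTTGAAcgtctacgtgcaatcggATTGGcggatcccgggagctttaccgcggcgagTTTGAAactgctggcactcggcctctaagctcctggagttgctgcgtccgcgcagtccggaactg
The *Rrm2* promoter held 1 CCAAT and none of the E2F or CHR letters in this window. The *Rrm1* promoter likewise held CCAAT alone, at 2 places. The *Mki67* promoter held 3 CCAAT and 2 CHR, and the *Cdk1* promoter held 1 E2F motif, 2 CHR and 3 CCAAT.

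The promoter table had entries for 20 of the 24 genes analysed, with 23 promoters among them because *Mcm7* and *Lig1* have more than 1 start. E2F letters were present in 9 of the 23 (39.1%), compared with 2.26% of all 32851 promoters of the same length. CCAAT was present in 65.2% against 37.4%, and CHR letters in 21.7% against 17.9%. By role, 5 of 8 promoters of the helicase and fork genes held E2F letters, whereas none of the 3 promoters of the nucleotide supply genes did, and both mitosis genes (*Aurka* and *Mki67*) held CHR letters. E2F matches on opposite strands can overlap each other and were counted separately, while E2F, CHR and CCAAT letters did not contain one another. These shares are descriptions of the letters present in a fixed window and were not tested.

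**Figure D1:**
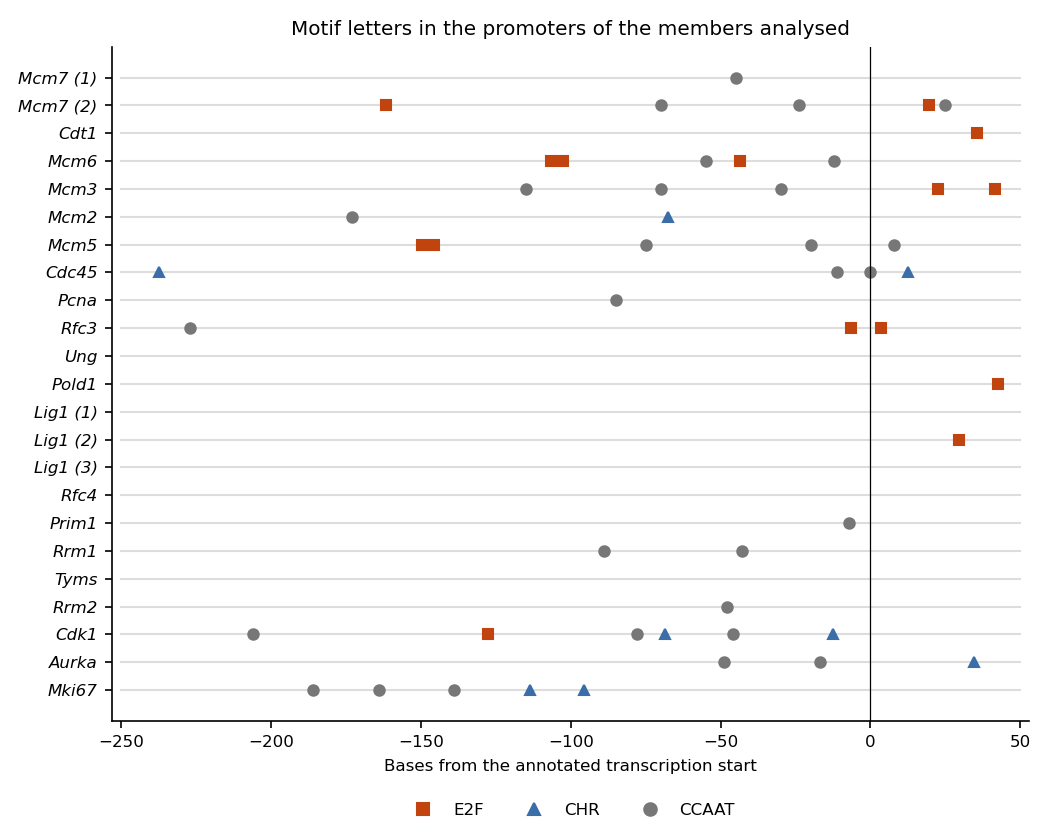
Positions of E2F (squares), CHR (triangles) and CCAAT (circles) letters in the 23 RefSeq promoters of 20 members, from 250 bases before to 50 after the annotated start (horizontal axis, bases); numbers in brackets separate the starts of 1 gene. E2F letters appear in 9 promoters, mostly of the helicase and fork genes, and *Rrm2* shows a single CCAAT.

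Libraries held 15746119 to 20523649 counts on genes. GF+MEV replicate 2 stood apart, with a TMM scaling factor of 0.890 against 0.978 to 1.01 in the other GF+MEV livers, and with 78170 CPM (counts scaled to a library of 1000000) on the gene *CT010467.1* against 1280 to 3118 CPM elsewhere. In the same library *Lars2* was at 8158 CPM, against 101.3 to 304.3 CPM elsewhere. Among the GF+PBS livers, replicates 1 and 3 and replicates 4 and 5 were the most alike, with a root mean square log2 difference of 0.529 and 0.496, over the 300 genes most variable among GF+MEV livers, against 0.68 to 0.85 for the other pairs. The hepatocyte markers summed to 84330 to 103200 CPM in GF+MEV and 88240 to 104400 CPM in GF+PBS, with *Cps1* higher by the edgeR test below, and none of the 44 analysed markers of 8 cell types was at 0 in any liver. Leukocyte markers (5 of 12 analysed) summed to 8.49 to 16.2 CPM in GF+MEV and 14.1 to 17.2 CPM in GF+PBS, with *Cd79a* and *Cd79b* lower. Biliary markers (3 of 6 analysed) summed to 28.1 to 79.3 CPM and 23.2 to 29.7 CPM, with *Krt19* higher, while *Sox9* had a log2 fold change of -0.98 and *Spp1* one of 0.52, neither called. Erythroid markers (6 of 8 analysed) summed to 267.2 to 401.9 CPM in GF+MEV and 282.4 to 481.6 CPM in GF+PBS. Of these, *Tfrc* alone was called, as higher, while 4 of the 6 had negative log2 fold changes. Endothelial markers (7 of 7 analysed) summed to 112.3 to 180.2 CPM and 137.0 to 185.9 CPM, with *Lyve1* higher and *Clec4g* lower. Skeletal muscle markers (4 of 5 analysed) summed to 223.5 to 309.8 CPM in GF+MEV and 190.5 to 664.3 CPM in GF+PBS, with none called. *Myh4* was at 314.6, 223.6 and 303.5 CPM in GF+PBS replicates 3 to 5, 87.5 and 112.4 CPM in replicates 1 and 2, and 101.9 to 124.1 CPM in GF+MEV. Kupffer cell and stellate cell markers had none called. The part of these markers in the results was not tested.

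The replication and mitosis genes were expressed at low levels in all 10 livers. Counts ranged from 12 to 760 per gene and liver, and all 24 genes had at least 10 counts in every liver. Per kilobase of exon, 22 of the 24 lay under the median of all genes tested, which was 3.42 CPM per kb, and their own median was 1.01 CPM per kb. The exceptions were *Pcna*, the sliding clamp, at 11.97 CPM per kb and *Ccnd1*, the G1 cyclin D1, at 5.78 CPM per kb. The lowest level per length was that of *Mki67*, the proliferation marker Ki-67, at 0.155 CPM per kb, followed by *Pole*, the leading strand polymerase, at 0.178 and *Cdk1*, the kinase that drives entry into mitosis, at 0.247 CPM per kb. The coefficient of variation among GF+MEV livers was 37.7% for *Mki67*, where counting error alone would give one of 18.8%, and 25.7% for *Ccnd1*, where it would give 4.89%.

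**Figure D2:**
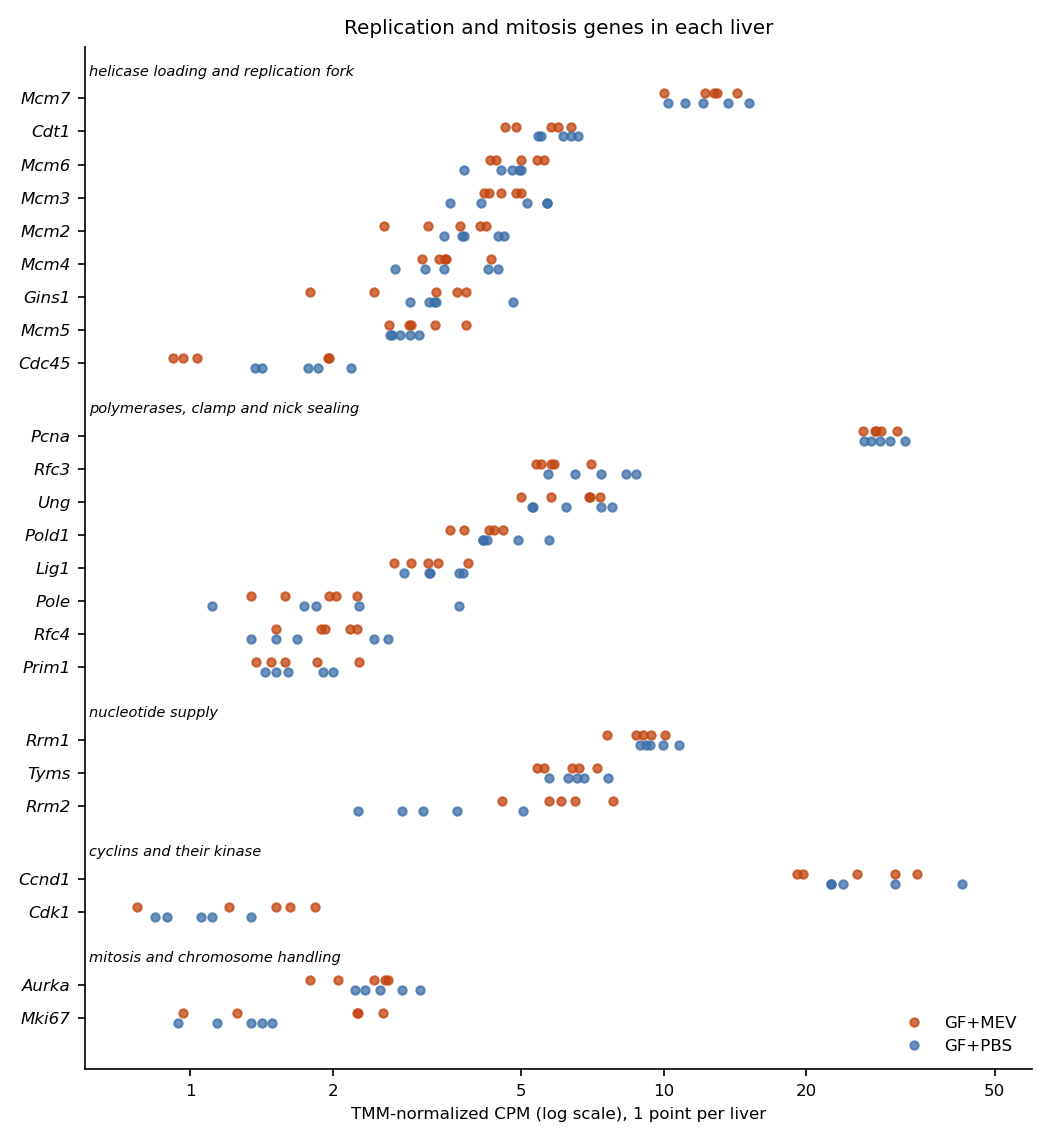
TMM-normalized CPM (horizontal axis, log scale) of the 24 genes analysed, grouped by role, with 1 point for each of the 5 GF+MEV and 5 GF+PBS livers. The groups overlap for every gene, and the clearest displacement is that of *Rrm2*, where only the lowest GF+MEV liver (4.56 CPM) lies below the highest GF+PBS liver (5.05 CPM).

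Between the groups, 1 of the 24 genes was higher in GF+MEV livers, *Rrm2*, which encodes the small, radical-carrying subunit of ribonucleotide reductase. None was lower, and 23 did not pass the test, which was edgeR's quasi-likelihood test with Benjamini-Hochberg adjustment over 12147 genes and a threshold of 0.05 (a gene past it is referred to as called). Across all genes, 4.12% were called higher and 3.52% lower, so 1 higher gene of 24 was near the background. DESeq2 and limma-voom also called 1 of these genes higher and none lower, and at an unadjusted p under 0.05 there were 2 (*Rrm2* and *Rfc3*), against 21.2% of all genes tested. None of the 24 had groups that did not overlap, against 3.94% of all genes that were higher and 3.45% that were lower with no overlap. The log2 fold changes ran from -0.33 to 0.85 with a median of -0.07, 8 were positive and 16 negative, and 19 were under 0.25 in size. Over all genes the median was -0.0037, 49.0% were positive and 76.6% were under 0.25 in size. With upper-quartile normalization, the calls over all genes went from 53.9% higher to 41.2% higher of those called, and the median of all genes moved to -0.046. In whole-liver RNA, fewer cells of a type and less RNA per cell cannot be told apart.

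**Figure D3:**
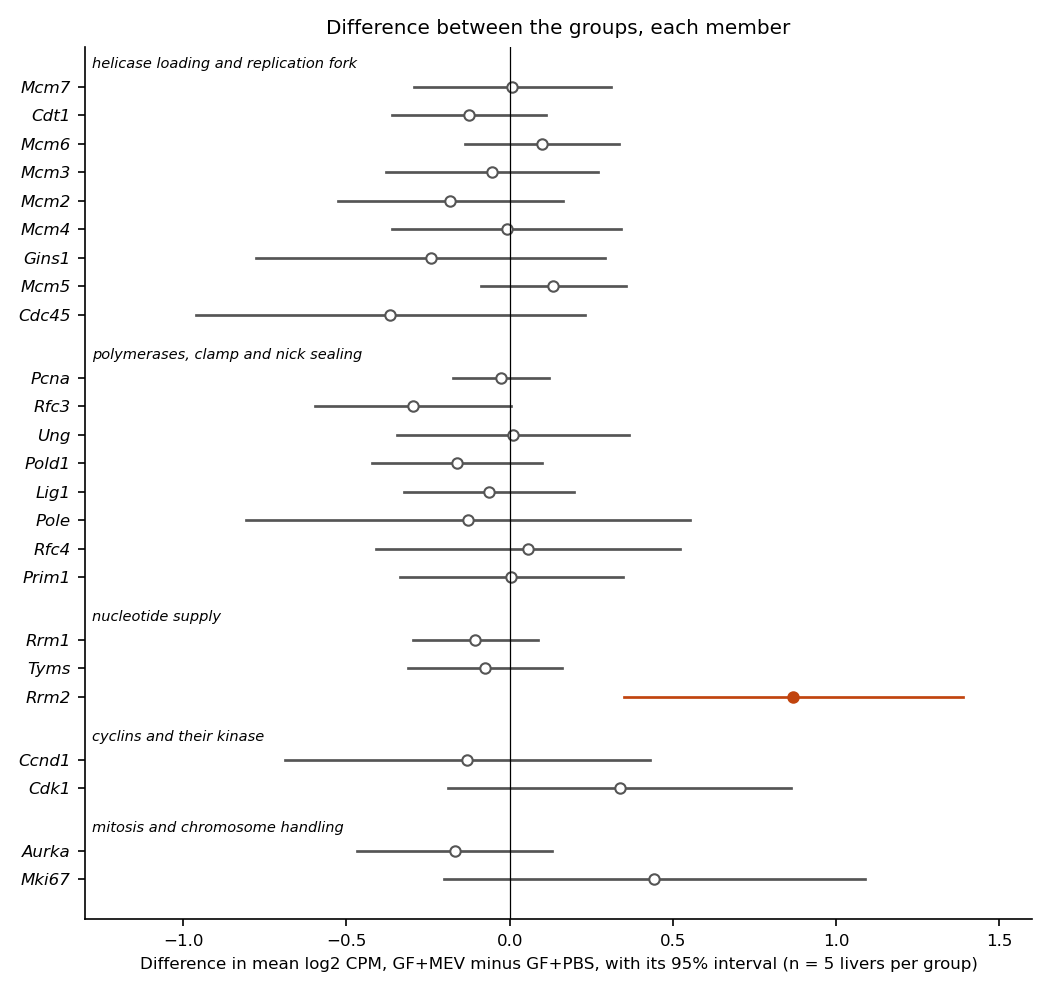
Difference in mean log2 CPM (GF+MEV minus GF+PBS, horizontal axis) for each of the 24 genes, with its 95% interval over 5 livers per group. *Rrm2* (filled) is the member called higher, with an interval from 0.35 to 1.39, and the intervals of the other 23 reach across 0.

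*Rrm2* (ENSMUSG00000020649, chr12:24708241-24714146, plus strand, GRCm38) stood at 7.81, 6.49, 6.08, 5.73 and 4.56 CPM in GF+MEV replicates 1 to 5 and at 3.11, 2.80, 2.26, 5.05 and 3.66 CPM in GF+PBS replicates 1 to 5. GF+MEV replicates 1 to 4 lay above every GF+PBS liver, and replicate 5 lay below GF+PBS replicate 4 alone. The means were 6.13 ± 1.18 CPM and 3.38 ± 1.07 CPM (± SD over 5 livers, as throughout), which is 1.80-fold or 0.85 on the log2 scale (SE 0.23). The adjusted p by edgeR was 0.0161, and an exact two-sided permutation test over the 252 labelings of 5 mice against 5 gave p = 0.0159. The exact p was not adjusted for the choice of *Rrm2*, which was called in these same livers, and is no separate support. The call held in each of the 18 alternatives tried, with log2 fold changes from 0.74 to 1.05. Without GF+MEV replicate 2 the log2 fold change was 0.83 (adjusted p = 0.0351 by edgeR), and with the alike GF+PBS livers summed in pairs it was 0.88 (adjusted p = 0.0316 by edgeR). The highest GF+PBS levels, 5.05 and 3.66 CPM, were those of the alike replicates 4 and 5.

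The other 2 genes of nucleotide supply did not pass the test. *Rrm1*, which encodes the large catalytic subunit of the same enzyme, was at 8.97 ± 0.92 CPM in GF+MEV and 9.63 ± 0.74 CPM in GF+PBS, with a log2 fold change of -0.11 (adjusted p = 0.586 by edgeR) and a 95% interval for the difference in mean log2 CPM from -0.30 to 0.09. *Tyms*, thymidylate synthase, was at 6.25 ± 0.76 CPM and 6.59 ± 0.70 CPM, with a log2 fold change of -0.08 (adjusted p = 0.759 by edgeR) and an interval from -0.31 to 0.16. Both intervals lie below the lower bound of 0.35 for *Rrm2*. As *Rrm2* was singled out by its call in these same livers, this is a description and no separate support. *Rrm2b*, the alternative small subunit used outside S phase, is not a member and was looked at after the values had been seen. It was at 2.36 ± 0.53 CPM and 2.13 ± 0.49 CPM, with a log2 fold change of 0.14 (adjusted p = 0.755 by edgeR).

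The balance between *Rrm2* and other members is given within each liver as a ratio of CPM, for 5 partners chosen after the values had been seen. The ratio of *Rrm2* to *Rrm1* was 0.865, 0.691, 0.803, 0.654 and 0.452 in GF+MEV replicates 1 to 5 and 0.339, 0.260, 0.253, 0.541 and 0.368 in GF+PBS replicates 1 to 5. The groups overlapped through GF+MEV replicate 5 and GF+PBS replicate 4 alone. The means were 0.693 ± 0.159 and 0.352 ± 0.116, a log2 difference of 0.999 with a 95% interval from 0.41 to 1.59. The ratio of *Rrm2* to *Tyms* was 0.986 ± 0.188 in GF+MEV and 0.508 ± 0.119 in GF+PBS, and that to *Pcna* 0.215 ± 0.036 and 0.116 ± 0.033. Their log2 differences were 0.97 (95% interval from 0.51 to 1.43) for *Tyms* and 0.92 (from 0.45 to 1.39) for *Pcna*. The ratio to *Mki67* was 3.63 ± 1.13 and 2.74 ± 0.89, a log2 difference of 0.42 with a 95% interval from -0.30 to 1.14, and the ratio to *Cdk1* was 4.60 ± 0.91 and 3.29 ± 1.102, a log2 difference of 0.53 with an interval from -0.06 to 1.11. Exact permutation tests on the log2 ratios gave p = 0.0159 (*Rrm1*), 0.00794 (*Tyms*), 0.00794 (*Pcna*), 0.198 (*Mki67*) and 0.0873 (*Cdk1*). As *Rrm2* and its partners were picked with their levels known, these ratios and their p-values are descriptions and no separate support.

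**Figure D4:**
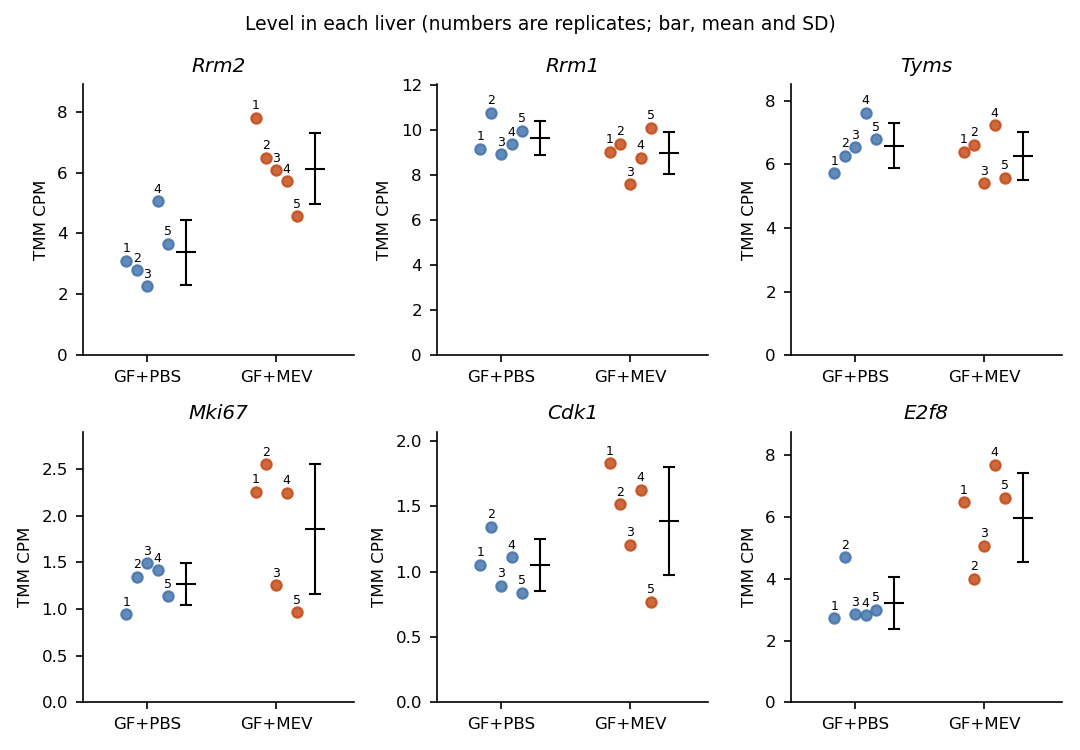
TMM-normalized CPM (vertical axes, from 0) of *Rrm2*, *Rrm1*, *Tyms*, *Mki67*, *Cdk1* and the cell cycle regulator *E2f8* in each liver, numbered by replicate, with the mean and SD beside each group of 5. *Rrm2* averages 6.13 CPM in GF+MEV and 3.38 CPM in GF+PBS, while *Rrm1* averages 8.97 and 9.63 CPM.

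*Mki67* and *Cdk1* had the next largest positive differences, and neither passed the test. *Mki67* was at 2.26, 2.55, 1.26, 2.25 and 0.964 CPM in GF+MEV replicates 1 to 5 and at 0.944, 1.35, 1.49, 1.42 and 1.14 CPM in GF+PBS replicates 1 to 5. GF+MEV replicates 1, 2 and 4 lay above all GF+PBS livers, and replicates 3 and 5 lay within their range. The means were 1.85 ± 0.70 CPM and 1.27 ± 0.22 CPM, with a log2 fold change of 0.54 (adjusted p = 0.266 by edgeR). The difference in mean log2 CPM was 0.44 (SE 0.28), with a 95% interval from -0.20 to 1.09. *Cdk1* was highest in the same 3 livers, with 1.83, 1.63 and 1.52 CPM in GF+MEV replicates 1, 4 and 2, above the GF+PBS maximum of 1.35 CPM, and with 1.21 and 0.771 CPM in replicates 3 and 5. Its means were 1.39 ± 0.41 CPM and 1.05 ± 0.20 CPM, with a log2 fold change of 0.40 (adjusted p = 0.384 by edgeR). Its difference in mean log2 CPM was 0.34 (SE 0.23), with a 95% interval from -0.19 to 0.86. *Aurka*, a kinase of the mitotic spindle poles and the other mitosis gene analysed, was at 2.44, 2.62, 1.79, 2.58 and 2.06 CPM in GF+MEV and 3.05, 2.52, 2.80, 2.22 and 2.34 CPM in GF+PBS. Its groups overlapped widely, with a log2 fold change of -0.18 (SE 0.13, adjusted p = 0.592 by edgeR).

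Among the helicase and fork genes, 0 of 9 were called, with 2 positive and 7 negative log2 fold changes and a median of -0.08. Of all genes, 4.12% were called higher and 3.52% lower, so 0 of 9 was near the background. *Mcm7*, a helicase subunit and the member of this role with the highest level per length, was at 12.2, 14.3, 10.04, 13.0 and 12.8 CPM in GF+MEV and 12.1, 13.7, 15.1, 11.1 and 10.2 CPM in GF+PBS. The groups covered the same range, and the interval for the difference in mean log2 CPM ran from -0.29 to 0.31. The other helicase subunits lay close together: *Mcm3* (4.58 ± 0.36 CPM in GF+MEV and 4.83 ± 0.96 CPM in GF+PBS), *Mcm6* (4.94 ± 0.57 and 4.60 ± 0.49 CPM), *Mcm2* (3.55 ± 0.68 and 4.01 ± 0.50 CPM), *Mcm4* (3.54 ± 0.46 and 3.60 ± 0.75 CPM) and *Mcm5* (3.11 ± 0.46 and 2.81 ± 0.17 CPM). Their log2 fold changes ran from -0.17 for *Mcm2* to 0.15 for *Mcm5*, so the 6 subunits of the helicase showed no common direction. *Cdt1*, the loading factor, was at 5.53 ± 0.74 CPM and 6.01 ± 0.52 CPM, with a log2 fold change of -0.11 (adjusted p = 0.643 by edgeR). *Cdc45*, which joins the loaded helicase, had the most negative value of all members, -0.33 (SE 0.26, adjusted p = 0.512 by edgeR). In GF+MEV it split into 2 livers at 1.95 and 1.97 CPM and 3 at 0.917 to 1.04 CPM, against 1.37 to 2.19 CPM in GF+PBS. *Gins1*, a GINS subunit, was at 3.003 ± 0.86 CPM and 3.50 ± 0.74 CPM, with a log2 fold change of -0.23 (adjusted p = 0.584 by edgeR).

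Among the polymerase, clamp and nick sealing genes, 0 of 8 were called, which was near the 4.12% higher and 3.52% lower of all genes. *Pcna*, the most abundant member per length, was at 28.7, 31.1, 28.0, 28.1 and 26.3 CPM in GF+MEV and 32.4, 26.5, 27.4, 30.1 and 28.6 CPM in GF+PBS. This was the narrowest of the 24 comparisons, with a log2 fold change of -0.03 (SE 0.06, adjusted p = 0.865 by edgeR) and an interval from -0.17 to 0.12. *Rfc3*, a subunit of the complex that loads PCNA, was at 5.91 ± 0.65 CPM in GF+MEV and 7.33 ± 1.26 CPM in GF+PBS, with a log2 fold change of -0.31 (edgeR's p was 0.0316 unadjusted and 0.179 adjusted). *Rfc4*, of the same complex, was at 1.95 ± 0.29 CPM and 1.92 ± 0.57 CPM. *Pold1*, the catalytic subunit of the lagging strand polymerase, had a log2 fold change of -0.17 (adjusted p = 0.519 by edgeR), and *Pole* one of -0.22 (adjusted p = 0.714 by edgeR), with GF+PBS replicate 2 at 3.70 CPM above the 1.11 to 2.27 CPM of all other livers. *Prim1*, the primase, *Lig1*, the ligase that seals nicks, and *Ung*, which removes uracil from DNA, differed by 0.03, -0.06 and 0.01 on the log2 scale.

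*Ccnd1*, which couples growth signals to the start of the cell cycle, varied between livers well beyond counting error in both groups. It was at 34.3, 19.7, 25.6, 19.1 and 30.8 CPM in GF+MEV and 22.6, 42.6, 24.0, 22.5 and 30.8 CPM in GF+PBS. High and low livers occurred in both groups, with a log2 fold change of -0.14 (SE 0.24, adjusted p = 0.749 by edgeR) and an interval from -0.69 to 0.43. Of the *Ccnd1* exon sequence, 21.6% of 50-base stretches also occur in *LTO1* on the other strand, and since the strand setting of the counting was not stated, reads of these genes could not be told apart there. The same limit holds for *Rfc4* with *Eif4a2* (9.14%), and *Mcm7* and *Pcna* shared 16.5% and 19.1% of their 50-base stretches with the copies *Gm5487* and *Pcna-ps2*. *Rrm2* shared no more than 5% with any other gene.

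The livers differed in how often they held the lowest or highest value of their group. GF+MEV replicates 3 and 5 each had the lowest value of their group for 8 of the 24 genes, and GF+PBS replicate 5 for 10, with the highest value for 0. The highest value of the group was most often in GF+MEV replicate 4 (7 genes) and GF+PBS replicate 1 (8 genes).

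Further genes of the same processes were taken from lists set by function, drawn up with earlier results of these data known. Of 40 other replication genes 32 were analysed, with 0 called higher and 1 lower and a median log2 fold change of -0.04. Over all genes 4.12% were called higher and 3.52% lower. At an unadjusted edgeR p under 0.05 there were 8 of the 32, against 21.2% of all genes. The gene called was *Pold2*, the accessory subunit of the lagging strand polymerase, at 20.7, 18.8, 20.7, 17.5 and 17.6 CPM in GF+MEV and 24.7, 20.9, 22.7, 24.3 and 22.4 CPM in GF+PBS. All GF+MEV livers lay below all GF+PBS livers, but the difference was small, with a log2 fold change of -0.27 (SE 0.07, adjusted p = 0.0494 by edgeR), and the call was lost in 10 of 18 alternatives. Groups did not overlap for 1 higher and 3 lower of the 32 genes, *Pold2* among the lower, against 3.94% and 3.45% of all genes. The higher gene was *Dbf4*, which activates the kinase that fires origins (2.89 ± 0.32 CPM in GF+MEV and 1.95 ± 0.33 CPM in GF+PBS, adjusted p = 0.0503 by edgeR). Also lower were *Orc6*, an origin recognition subunit (2.74 ± 0.22 and 3.62 ± 0.43 CPM, adjusted p = 0.0907 by edgeR), and *Dnmt1*, which copies DNA methylation (11.002 ± 0.77 and 12.6 ± 0.64 CPM, adjusted p = 0.182 by edgeR). *Dbf4*, *Orc6* and *Dnmt1* were named after their values were seen. Of 40 other mitosis genes 15 were analysed, and 1 had groups that did not overlap (*Bub3*, lower in GF+MEV), against 3.45% of all genes lower. By edgeR, DESeq2 or limma-voom 0 of the 15 were called, with 2 at an unadjusted edgeR p under 0.05 (*Bub3* and *Pttg1*), against the 21.2% of all genes. The median was -0.09, and the values farthest from 0 were those of *Cdc25b*, a phosphatase that activates CDK1, at -0.52 (0.874 ± 0.324 CPM in GF+MEV and 1.28 ± 0.56 CPM in GF+PBS, adjusted p = 0.397 by edgeR) and *Tacc3*, a spindle protein, at 0.24 (1.96 ± 0.57 and 1.64 ± 0.25 CPM, adjusted p = 0.594 by edgeR).

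**Figure D5:**
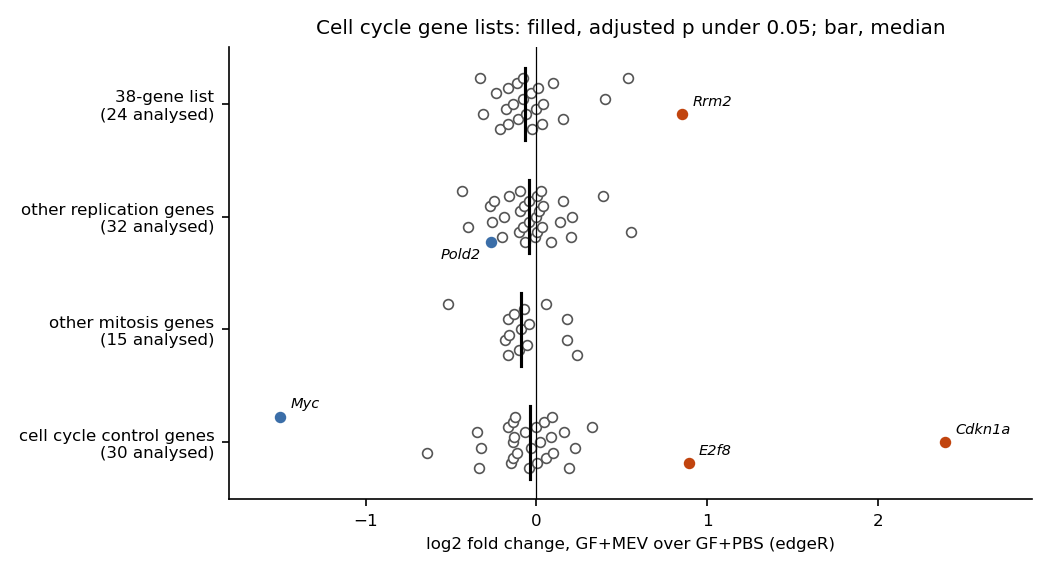
Log2 fold changes (horizontal axis, GF+MEV over GF+PBS, from edgeR) of the genes analysed in the 38-gene list and in 3 further lists; each point is a gene, filled where its adjusted p was under 0.05, and bars are medians. The medians lie between -0.09 and -0.04, and *Cdkn1a* and *Myc* lie farthest from 0, at 2.39 and -1.50.

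Of 34 genes that control the cell cycle 30 were analysed, with 2 called higher and 1 lower and a median log2 fold change of -0.04. Over all genes 4.12% were called higher and 3.52% lower, so these counts were near the background. At an unadjusted edgeR p under 0.05 there were 8 of the 30, against 21.2% of all genes. *Cdkn1a*, the p21 inhibitor of cyclin-dependent kinases, was at 5.55, 9.38, 7.53, 6.18 and 7.003 CPM in GF+MEV and 2.50, 1.57, 1.55, 0.505 and 0.661 CPM in GF+PBS. Every GF+MEV liver lay above every GF+PBS liver, with a log2 fold change of 2.39 (SE 0.41, adjusted p = 0.000124 by edgeR), called in each of the 18 alternatives. *E2f8*, an atypical E2F that represses E2F target genes, was at 6.47, 4.002, 5.07, 7.69 and 6.62 CPM in GF+MEV and 2.72, 4.71, 2.86, 2.83 and 3.002 CPM in GF+PBS. It rose by 0.89 on the log2 scale (SE 0.22, adjusted p = 0.0116 by edgeR), with GF+PBS replicate 2 above the lowest GF+MEV liver, and the call was lost when the alike GF+PBS livers were summed (adjusted p = 0.0596 by edgeR). A minor part of its exon sequence overlaps *Gm2788* on the other strand, and reads of the 2 genes could not be told apart there. *Myc*, a driver of cell growth, was at 2.99, 5.24, 3.67, 6.01 and 3.47 CPM in GF+MEV and 7.33, 3.19, 7.98, 21.9 and 19.9 CPM in GF+PBS. Its lower level in GF+MEV (log2 fold change -1.50, adjusted p = 0.0414 by edgeR) was largest against GF+PBS replicates 4 and 5, the alike pair. GF+PBS replicates 1 and 3 also lay above every GF+MEV liver, and replicate 2 lay among them. The difference in mean log2 CPM of *Myc* was -1.20 (SE 0.54), with a 95% interval from -2.44 to 0.04 that reached across 0. The log2 fold change stayed between -1.74 and -1.16 in the 18 alternatives, 8 of which ended the call, among them leaving out either of replicates 4 and 5 (-1.16 and -1.25, adjusted p = 0.121 and 0.0900 by edgeR) and limma-voom (adjusted p = 0.167). *Ccnd3*, a D-type cyclin named after its values were seen, was also higher in every GF+MEV liver than in any GF+PBS liver (41.7 ± 0.81 and 35.7 ± 3.23 CPM) and missed the threshold, with a log2 fold change of 0.23 (adjusted p = 0.0559 by edgeR). Of the 30 genes, 2 were higher with no overlap (*Cdkn1a* and *Ccnd3*) and 0 lower, against 3.94% and 3.45% of all genes.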

How the data were processed

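RNA from whole liver was sequenced from 5 GF+MEV and 5 GF+PBS mice. Per the study's methods and the submitters' processing notes, the authors used STAR 2.7.3a on the GRCm38 genome, counted reads per gene with HTSeq and removed genes under 20 counts across all samples, and deposited raw counts. The strand setting of the counting was not given in the sources used here. The table also held 5 columns that matched no described sample and were not used. Samples were grouped by the labels' treatment.

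Symbols, positions and exon lengths came from GENCODE M21 of GRCm38, in which 10 identifiers had no symbol. Of 12148 genes, 12147 had at least 20 counts over the 10 livers and were tested with edgeR 4.0.16 in R 4.3.3 (TMM normalization, quasi-likelihood test, group as the only term, Benjamini-Hochberg adjustment over all genes, threshold 0.05). Levels are TMM-normalized CPM. Standard errors and 95% intervals of single genes are those of the difference in mean log2 CPM (prior count 2). They are not those of edgeR's log2 fold changes, beside which some of them are printed. For single genes and the ratios of *Rrm2*, exact two-sided permutation tests were run with scipy 1.17.1. Replicate numbers were not treated as pairs in the main test. Deviations of same-numbered livers correlated from -0.188 to 0.166, which cannot decide whether the livers were paired. Alternatives were DESeq2 1.42.0, limma-voom (limma 3.58.1), RLE and upper-quartile normalization, no filter, a minimum of 10 counts per library, a replicate block, each liver left out, and alike GF+PBS livers summed. The edgeR, DESeq2 and limma-voom steps were tested on simulated data.

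The member genes and the further lists were chosen with earlier results of these data known. Values in every liver are given for members that were called, that did not overlap between groups or that had a log2 fold change of at least 0.5 in size at 0.5 CPM or more on average, and for the highest member per length of each role. Of the further lists, called genes are named, or the 2 farthest from 0 where none was called. Counts of a gene over the libraries' 15746119 to 20523649 limit the precision of scarce members.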

Additional observations from a re-analysis of the deposited data

Results flagged for a closer look

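In each group of 5 livers, the highest and lowest values of 30 genes and of the TMM scaling factors were compared with the other 4 livers by Dixon's ratio, and 4 of 62 groups held a liver far from the rest, where chance alone gives about 1 in 20. *Gins1* was at 4.80 CPM in GF+PBS replicate 4 and at 2.92 to 3.30 CPM in the rest of its group. *E2f8* was at 4.71 CPM in GF+PBS replicate 2 and at 2.72 to 3.002 CPM in the others, and without that liver its log2 fold change was 1.07 (adjusted p = 0.00214 by edgeR). *Tacc3* was at 2.07 CPM in the same liver and at 1.43 to 1.61 CPM in the others. The scaling factor of 0.890 in GF+MEV replicate 2 lay below the 0.978 to 1.01 of its group, in the library with 78170 CPM on *CT010467.1*, and without it the log2 fold change of *Rrm2* was 0.83 (adjusted p = 0.0351 by edgeR).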

How the results depend on the processing

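The count of members called, 1 higher and 0 lower, was the same in each of the 18 alternatives. The other replication genes called, 1 in the main test, numbered 2 with DESeq2 and with at least 10 counts in every library, 0 with RLE size factors and with the alike GF+PBS livers summed, and 0 to 1 when each liver was left out. Summing the alike GF+PBS livers gave 561 calls over all genes in place of 928, a setting with fewer samples. With the replicate block there were 792 calls over all genes, and replicate numbers 1 and 5 alone correlated best with their own number. Signs turned in members near 0: *Mcm7* to 0.000197 with DESeq2, 0.000129 with RLE and 0.00432 with the block, *Rfc4* to -0.00732, *Prim1* to -0.0103 and *Ung* to -0.0319 with upper-quartile normalization, and *Ung* to -0.0159 with the summed livers (log2 fold changes). With each liver left out, log2 fold changes ran from -0.11 to 0.0621 for *Mcm4*, -0.0638 to 0.078 for *Mcm7*, -0.0612 to 0.013 for *Pcna*, -0.0667 to 0.176 for *Rfc4*, -0.38 to 0.0738 for *Pole*, -0.0993 to 0.0998 for *Prim1*, -0.0537 to 0.0898 for *Ung* and -0.258 to 0.0552 for *Ccnd1*. The cause of these shifts was not tested. Of 539 values of single genes under the alternatives, 489 kept their direction and their side of the threshold. Counting error was largest for *Cdc45*, *Cdk1*, *Prim1* and *Mki67*, at 21.8%, 21.4%, 19.0% and 18.8% of their level in a GF+MEV liver.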

Other observations

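*Mcm10*, a fork protein of the other replication genes, came close to the threshold. It was at 91.5, 106.5, 102 and 128.4 CPM in GF+MEV replicates 1 to 4 and 76.9 CPM in replicate 5, and at 83.9, 64.3, 79.0, 84.7 and 74.1 CPM in GF+PBS. GF+MEV replicates 1 to 4 lay above every GF+PBS liver, with a log2 fold change of 0.39 (adjusted p = 0.0559 by edgeR), which missed the threshold. The gene was named after its values were seen. Its level over the 10 livers was 11.6 CPM per kb, high beside the median of 1.01 CPM per kb of the 24 members analysed. Whether reads of other transcripts add to the *Mcm10* count was not tested.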
